A study of Vitis rotundifolia with 36 samples.

Results

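The flesh of the muscadine grape cultivar Granny Val was examined as layer 3 against layer 4, the inner 2 of the 4 tissue layers into which mature berries were cut. The comparison rests on 6 of the 36 libraries of the study, 3 from Granny Val layer 3 and 3 from Granny Val layer 4, taken by cultivar and layer as the sample titles give them. Messenger RNA was sequenced, and each library is a table of read counts over 26394 gene models. Granny Val is a green cultivar whose skin the study calls intermediate in thickness, beside the purple cultivars Alachua, with thick skin, and Supreme, with thin skin. Both groups share the cultivar, ripeness and vineyard and differ in the layer, and the labels name no agent or genotype beyond the cultivar. How many berries or plants stand behind a library, and whether replicates are separate plants or repeat extractions, is not stated in the labels. The p-values therefore measure the spread among these libraries alone, part of which may be technical.

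The layers are named in more than one way in the labels. The extraction protocol lists mesocarp and endocarp as the third and the fourth tissue, whereas the sample tags read Endocarp for layer 3 and Seed for layer 4, and the source of every library is given as peel. The layer numbers are used here. In a grape berry the mesocarp is the bulk of the pulp, made of large vacuolated cells that store water, sugars and organic acids, and the endocarp is the thin innermost tissue lining the cavities that hold the seeds. Ripening of this flesh is known for sugar import, loss of acids and loosening of the cell walls, which bears on the firmness of the fruit. In muscadines the skin slips off a soft, cohesive pulp, and fruit firmness and skin slipping are among the traits the study set out to follow.

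Each gene model carries an identifier that holds its chromosome and a serial number. Of the 26394 identifiers, 0 were found in the available gene table, made from the assembly of another muscadine cultivar, so marker genes of seed, vascular or flesh cells and other lists of named genes were not analysed here. The tissue of the 6 libraries was therefore not checked against defining markers, and gene models are described by identifier, level and pattern across layers, with no coordinates. These are bulk libraries, in which fewer cells of a type and less RNA per cell cannot be told apart.

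Layers 3 and 4 of Granny Val could not be separated for any gene model by the edgeR quasi-likelihood test with Benjamini-Hochberg adjustment. Of 17388 gene models tested, 0 were called higher and 0 lower in layer 3 (0% of those tested), where a call needs an adjusted p under 0.05 and a difference of at least 2-fold. The smallest unadjusted p was 0.00038, and its adjusted value was 1. At an unadjusted p under 0.05 there were 499 gene models (2.87%), of which 175 were higher (1.01%) and 324 were lower (1.86%) in layer 3. That number was 250 without layer 4 replicate 2, 287 in a fit of the 6 libraries alone and 858 (4.77%) without layer 4 replicate 1. Evenly spread p-values would put a share of 0.05 of the gene models under this threshold. Both 2.87% and 4.77% are below that share. DESeq2, the other test run on the same counts, called 28 of 20912 gene models (0.134%), with 6 higher (0.0287%) and 22 lower (0.105%) in layer 3, and had 773 at an unadjusted p under 0.05 (3.7%). Dropping the fold minimum left the edgeR count at 0. Among the 3 libraries on each side, every layer 3 value lay above every layer 4 value for 510 gene models (2.93%), and every layer 3 value lay below for 639 (3.67%).

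The skin layers of the same cultivar, tested in the same fit, gave a different count. Between layer 1 and layer 2, 978 gene models were called (5.62%), 481 higher (2.77%) and 497 lower (2.86%) in layer 1. The median absolute log2 fold change over all 17388 gene models was 0.32 between layers 3 and 4 and 0.63 between layers 1 and 2. Libraries did not overlap for 5537 of the 17388 gene models tested between layers 1 and 2, against 1149 of 17388 between layers 3 and 4. The count for the skin layers moved to 389, 523 and 375 without replicate 1, 2 or 3 of layer 1. It became 462, 444 and 1272 without replicate 1, 2 or 3 of layer 2, and DESeq2 called 2169 of 20912 gene models tested. All layer 1 library names start with a number, and those of layer 2 replicates 1 and 2 with a letter. What part the kind of name has in the skin count was not tested. A test of the difference between the counts of layers 1 and 2 and of layers 3 and 4 was not made.

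The intervals of the fold changes give the precision that the 6 libraries allow. The 95% interval of the log2 fold change lay wholly between 2-fold lower and 2-fold higher for 5009 gene models, 28.8% of those tested. The share increased with level. Of the 2022 gene models with a mean of at least 100 CPM in the higher layer, 1375 (68%) had such an interval, and their median standard error was 0.28 on the log2 scale. CPM, the usual scaling of a count by the total of its library, was taken here after TMM normalisation. At 10 to 100 CPM the number was 3556 of 7417 (47.9%), with a median standard error of 0.35. At 1 to 10 CPM it was 77 of 5231 (1.47%), with a median standard error of 1.10, and under 1 CPM it was 1 of 2718 (0.0368%). For most gene models under 10 CPM the interval thus reached beyond 2-fold, and above 10 CPM an interval that leaves out 0 did not bring a call after adjustment over all gene models. Among the 9439 gene models of at least 10 CPM, the fitted difference exceeded 2-fold in 370 (3.92%).

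**Figure D1:**
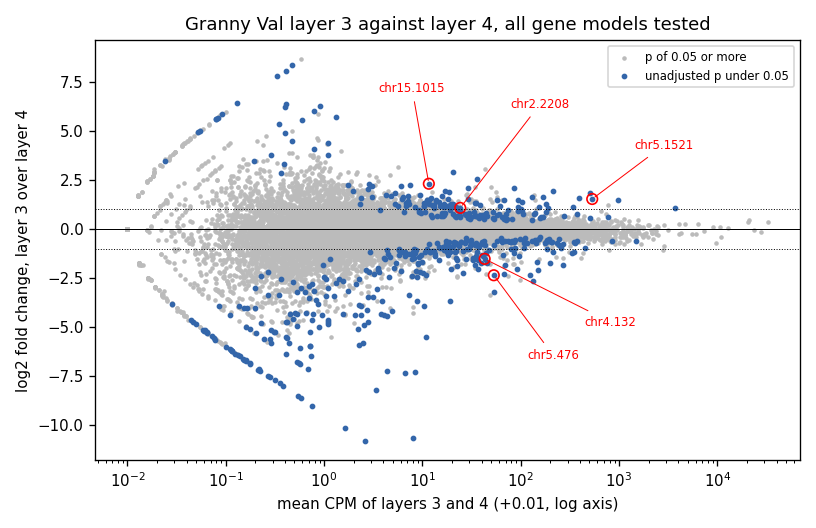
The log2 fold change of layer 3 over layer 4 in Granny Val is plotted against the mean CPM of both layers on a log axis, 1 point per gene model tested. The 499 gene models with an unadjusted p under 0.05 are blue, dotted lines mark 2-fold, circles mark the 5 gene models described by name, and the scatter narrows as the level increases.

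The 324 gene models lower in layer 3 at an unadjusted p under 0.05 and the 175 higher ones are described here by level and size. Of the higher ones, 128 had a mean of at least 10 CPM in layer 3, 108 were at least 2-fold apart, 104 had no overlap between the libraries, and the median absolute log2 fold change was 1.21. Of the lower ones, 167 had at least 10 CPM in layer 4, 243 were at least 2-fold apart, 163 had no overlap, and the median was 2.03. They were spread over all 20 chromosomes, and their share of the gene models tested ran from 1.94% on chromosome 7 to 3.98% on chromosome 16. None of these gene models passed the adjustment over all gene models, and they are fewer than evenly spread p-values would give. They were picked by p on the same libraries, so their size and lack of overlap follow in part from the picking. Over all gene models tested, 16.7% were at least 2-fold apart. Libraries did not overlap for 2.93% of those tested on the higher side and 3.67% on the lower side.

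The most abundant transcripts were shared by the layers. The 10 gene models with the highest mean CPM in layer 3 were also the 10 highest in layer 4, and 86 of the 100 highest were shared. Among those 86, the fitted difference stayed within 2-fold for 84, the median absolute log2 fold change was 0.22, the largest was 1.08, and 2 had an unadjusted p under 0.05. The gene model evm.model.chr5.908, on chromosome 5, ranked first in layer 3 and second in layer 4. It had 35730, 34030 and 40140 CPM in layer 3 and 51210, 18200 and 15980 CPM in layer 4. Its layer 4 values spread from below to above all of the layer 3 values, and the log2 fold change was 0.37 with a 95% interval from -0.69 to 1.42. The gene model evm.model.chr1.634, on chromosome 1, ranked second in layer 3 and first in layer 4. It had 23530, 21640 and 33760 CPM in layer 3 and 29710, 33740 and 25430 CPM in layer 4 (log2 fold change -0.17, interval -0.98 to 0.64). The interval of the first includes a 2-fold difference and that of the second lies just within 2-fold.

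How concentrated the transcripts were, and how many gene models were seen, also overlapped between the layers. The 100 most counted gene models of each library took 32.7%, 31.0% and 38.6% of its counts in layer 3 and 36.5%, 34.3% and 30.6% in layer 4. The means were 34.1 ± 4.00% and 33.8 ± 2.99% (SD, n = 3 each; two-sided exact permutation test, p = 0.9, where 3 against 3 can give no p below 0.1). After thinning each library to 39312643 counts, the smallest of the 6 totals, 17711, 19017 and 14003 gene models had at least 1 count in layer 3 and 17903, 15557 and 18869 in layer 4. The mean of layer 3 was lower by 532.7 gene models (exact permutation p = 0.7), and the sign turned without layer 3 replicate 3 (921 higher) or without layer 4 replicate 3 (180.3 higher). The difference in the top 100 share, 0.29 percentage points, likewise turned to -1.97 without layer 3 replicate 3 and to -1.30 without layer 4 replicate 3. Reads outside any gene model made up 12.6 ± 0.346% in layer 3 and 13.2 ± 1.25% in layer 4 (exact permutation p = 0.7).

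Few gene models were seen in one layer and not in the other. At least 1 CPM was reached in all 6 libraries by 11664 gene models. In layer 3, 0 gene models had at least 1 CPM in 2 or more libraries while every layer 4 library stayed under 0.1 CPM. In the other direction 6 gene models met the same rule, all of them at 0 CPM in layer 3 replicate 3. Of these, 1 had at least 1 CPM in all 3 layer 4 libraries. That one, evm.model.chr15.1178 on chromosome 15, was chosen after its values were seen. It had 0.0741, 0.0849 and 0 CPM in layer 3 and 1.42, 1.92 and 1.00 CPM in layer 4. The groups did not overlap, and its unadjusted p of 0.00038 was the smallest of all gene models tested, with an adjusted p of 1 in edgeR and of 0.0015 in DESeq2. A count of 3 corresponds to between 0.051 and 0.080 CPM in these 6 libraries, so the layer 3 values lie close to the level of a few reads.

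The 6 libraries differed from one another in ways that the layer did not follow. Totals ran from 39312643 to 57280785 counts. Pearson correlations of log2 CPM across gene models, which share libraries and are not independent, were 0.873 to 0.956 within layer 3, 0.892 to 0.918 within layer 4 and 0.848 to 0.953 between the layers. The median between layers 3 and 4, 0.902, stood above the medians of layer 2 with layer 3 (0.822), layer 2 with layer 4 (0.839) and layer 1 with layer 3 (0.723). Layer 3 replicate 3 correlated with the other layer 3 libraries at 0.873 and 0.874 and with layer 4 replicates 1, 2 and 3 at 0.902, 0.848 and 0.861. Each of the 3 layer 4 libraries had its highest correlation with a layer 3 library. Layer 4 replicate 1 had 0.935 with both layer 3 replicates 1 and 2, against 0.894 and 0.918 within its layer. Layer 4 replicate 3 had 0.953 and 0.950 with them, against 0.918 and 0.892 within its layer, and layer 4 replicate 2 had 0.895 with layer 3 replicate 2, close to the 0.894 and 0.892 within its layer. The first principal component of the 12 Granny Val libraries held 39.5% of the variance and put all 6 between 96.8 and 120.4, with layer 1 at the other end. The second held 17.5% and set layer 3 replicate 3, at 172.1, apart together with layer 2 replicate 3, at 165.9, while the other 5 inner libraries lay between -67.96 and 27.45.

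**Figure D2:**
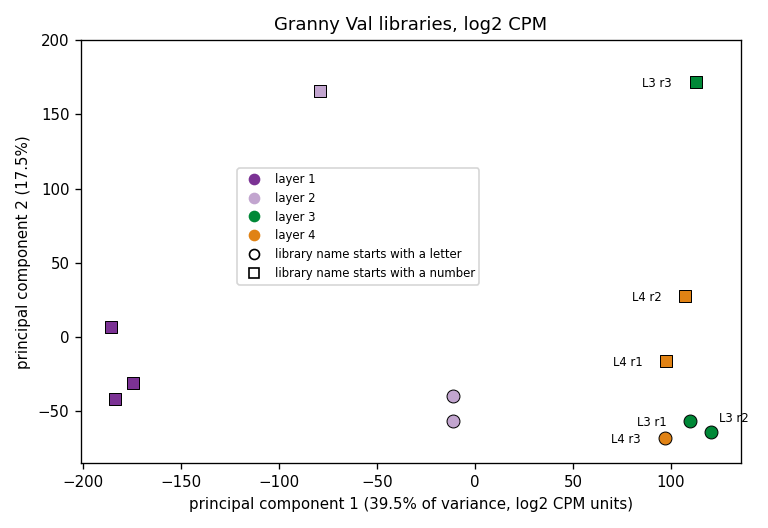
The first 2 principal components of log2 CPM are plotted for the 12 Granny Val libraries, with colour for the layer and shape for the kind of library name. The libraries of layers 3 and 4 share the right side, from 96.8 to 120.4 on component 1, and layer 3 replicate 3 stands at 172.1 on component 2, far from layer 3 replicates 1 and 2.

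Layer 3 replicate 3 lacked many gene models of moderate level. Of 5325 gene models with a mean of 1 to 10 CPM over the Granny Val libraries, it had 0 counts for 24.3%. The share was 3.92% and 2.44% in the other layer 3 libraries and 3.47%, 11.5% and 1.99% in layer 4 replicates 1, 2 and 3. There were 415 gene models under 0.1 CPM in layer 3 replicate 3 alone and at 1 CPM or more in the other 5 libraries, 325 of them at 0 counts, and their median level in the other 5 was 3.33 CPM. For layer 4 replicate 2 the same count was 92, and for the remaining 4 libraries it was between 0 and 2. In the opposite direction, 49 gene models had at least 1 CPM in layer 4 replicate 2 alone, 27 in layer 3 replicate 3 alone and 2 to 10 in each of the others. Of the 49, 16 (32.7%) had at least 1 CPM in some Granny Val layer 1 library and 3 (6.12%) in some layer 2 library. For the 27 of layer 3 replicate 3 the numbers were 8 (29.6%) and 5 (18.5%). For the 10 of layer 4 replicate 3 they were 4 (40%) and 1 (10%), so the layer 1 share was not particular to layer 4 replicate 2.

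**Figure D3:**
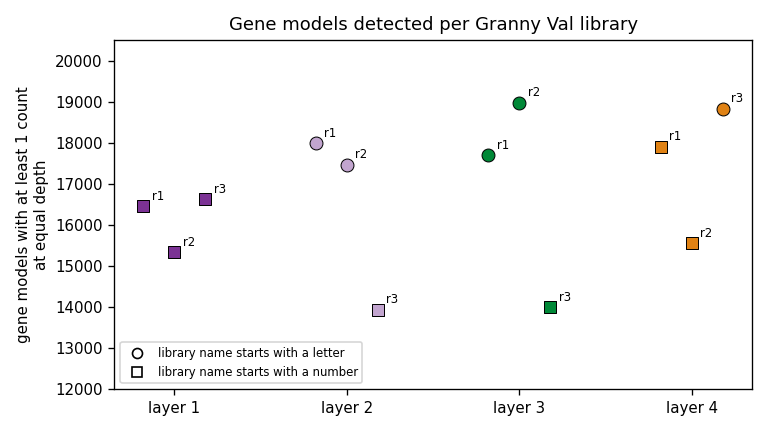
The number of gene models with at least 1 count, after thinning every Granny Val library to 37260186 counts, is plotted for each library by layer on an axis that does not start at 0. Layer 3 replicate 3 (13996) and layer 2 replicate 3 (13933) are the lowest, and layer 4 replicate 2 (15550) is the lowest of its layer.

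The same values differed with the kind of library name. The names of layer 3 replicates 1 and 2 and of layer 4 replicate 3 start with a letter, and those of layer 3 replicate 3 and layer 4 replicates 1 and 2 start with a number; the labels do not say what the names stand for. Pairs of the 3 libraries with letters correlated at 0.950 to 0.956 whatever their layer, pairs of the 3 with numbers at 0.848 to 0.902, and mixed pairs at 0.861 to 0.935. Over the 18 libraries of layers 3 and 4 of all 3 cultivars, thinned to 36614131 counts, those with letters had 17687 to 19045 gene models and those with numbers had 13989 to 17873. With the kind of name as a term in the Granny Val fit, 934 gene models were called for the name (5.37%), 474 higher (2.73%) and 460 lower (2.65%) in libraries with numbers. All layer 1 libraries have numbers, so that term leans on layers 2 to 4. In that fit 0 gene models were called between layers 3 and 4 and 968 had an unadjusted p under 0.05. What part the kind of name or the low detection of layer 3 replicate 3 has in the spread was not tested. Without both layer 3 replicate 3 and layer 4 replicate 2 the count of calls was still 0, with 421 at an unadjusted p under 0.05.

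One library decided the only calls that edgeR made under any setting tried. Without layer 4 replicate 1, 3 gene models were called (0.0167%), 2 higher (0.0111%) and 1 lower (0.00556%) in layer 3, and 858 had an unadjusted p under 0.05 (4.77%). Leaving out any other of the 6 libraries gave 0 calls. DESeq2 without the same library called 122 of 20839 gene models tested, 63 higher and 59 lower in layer 3. The 3 gene models are described with 2 more. For these 2, and for 2 of the 3, the reason for naming was the smallest p in their direction in the fit of all libraries, at a mean of at least 10 CPM. Since 0 gene models were called in that fit, all 5 were chosen after their values were seen, and each had an adjusted p of 1 in it.

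The gene model evm.model.chr15.1015, on chromosome 15, had the smallest p of those higher in layer 3. It had 18, 22.9 and 17.0 CPM in layer 3 and 8.21, 1.20 and 2.28 CPM in layer 4. The layers did not overlap, and layer 4 replicate 1 was the highest of its layer. The log2 fold change was 2.31 (SE 0.52, 95% interval 1.19 to 3.43, edgeR adjusted p = 1), with an adjusted p of 0.018 in DESeq2. Without layer 4 replicate 1 it was 3.46 (SE 0.32, edgeR adjusted p = 0.0041). Across the berry its level stood at 203 ± 22.6 CPM in layer 1, 172 ± 18.1 CPM in layer 2, 19.3 ± 3.16 CPM in layer 3 and, in layer 4, 3.90 ± 3.78 CPM (SD, n = 3 each), so that it was a transcript mainly of the skin layers. Within libraries with letters it averaged 20.5 CPM in layer 3 (n = 2) and was at 2.28 CPM in layer 4 (n = 1), and within libraries with numbers it was at 17.0 CPM in layer 3 (n = 1) and averaged 4.71 CPM in layer 4 (n = 2).

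The second, evm.model.chr2.2208 on chromosome 2, had 27.0, 31.9 and 39.7 CPM in layer 3 and 20.0, 13.3 and 13.5 CPM in layer 4. The layers did not overlap. Its log2 fold change was 1.08 (SE 0.25, interval 0.54 to 1.61, edgeR adjusted p = 1), with an adjusted p of 0.029 in DESeq2 and of 0.28 in edgeR without layer 4 replicate 1. Its means in the skin were 74.0 ± 5.58 CPM in layer 1 and 47.2 ± 7.35 CPM in layer 2, so that the 4 layer means stood in descending order from the outside of the berry inwards.

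Of the gene models lower in layer 3, evm.model.chr4.132 on chromosome 4 had 22.9, 27.3 and 16.2 CPM in layer 3 and 32.6, 86.9 and 71.9 CPM in layer 4. The layers did not overlap, and layer 4 replicate 1 stood closest to layer 3. The log2 fold change was -1.53 (SE 0.37, interval -2.34 to -0.72, edgeR adjusted p = 1), with an adjusted p of 0.076 in DESeq2 and of 0.18 in edgeR without layer 4 replicate 1. Its levels in layers 1 and 2 were 10.6 ± 3.09 and 25.0 ± 3.55 CPM, so that layer 4, at 63.8 ± 28.1 CPM, held the highest mean of the 4.

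The other, evm.model.chr5.476 on chromosome 5, showed the split within layer 4 most clearly. It had 16.4, 18 and 17.5 CPM in layer 3 and 15.0, 137 and 115 CPM in layer 4. Layer 4 replicate 1 lay below all of the layer 3 values, and the other 2 layer 4 libraries lay far above them. The log2 fold change was -2.37 (SE 0.58, interval -3.63 to -1.10, edgeR adjusted p = 1; DESeq2 adjusted p = 0.046), and without layer 4 replicate 1 it was -2.87 (SE 0.30, edgeR adjusted p = 0.0067). Layers 1 and 2 had 34.3 ± 6.10 and 26.7 ± 7.78 CPM.

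The gene model evm.model.chr5.1521, also on chromosome 5, was the most abundant of the 5. It had 932, 520 and 923 CPM in layer 3 and 590, 128 and 106 CPM in layer 4. Layer 4 replicate 1 lay inside the range of layer 3, so that the layers overlapped. With all libraries the log2 fold change was 1.53 (SE 0.53, interval 0.37 to 2.69, edgeR adjusted p = 1; DESeq2 adjusted p = 0.55), and without layer 4 replicate 1 it was 2.76 (SE 0.32, edgeR adjusted p = 0.014). Layers 1 and 2 had 1250 ± 92.8 and 1620 ± 107 CPM, both above layer 3, at 792 ± 235 CPM, and layer 4, at 275 ± 273 CPM.

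For all 5, the layer with the higher mean was the same within the libraries with letters and within those with numbers. For those whose layers did not overlap, any split of the libraries gives this. All 5 were chosen on these libraries, so the agreement is no check on the kind of name. For evm.model.chr5.476 the mean of layer 4 in libraries with numbers rests on replicate 2, at 137 CPM, since replicate 1, at 15.0 CPM, lay below the layer 3 library, at 17.5 CPM. These comparisons hold 2 libraries against 1 or 1 against 2, so no test was made within a kind of name. For evm.model.chr5.1521, for example, libraries with letters averaged 726 CPM in layer 3 (n = 2) and were at 106 CPM in layer 4 (n = 1), and libraries with numbers were at 923 CPM in layer 3 (n = 1) and averaged 359 CPM in layer 4 (n = 2).

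**Figure D4:**
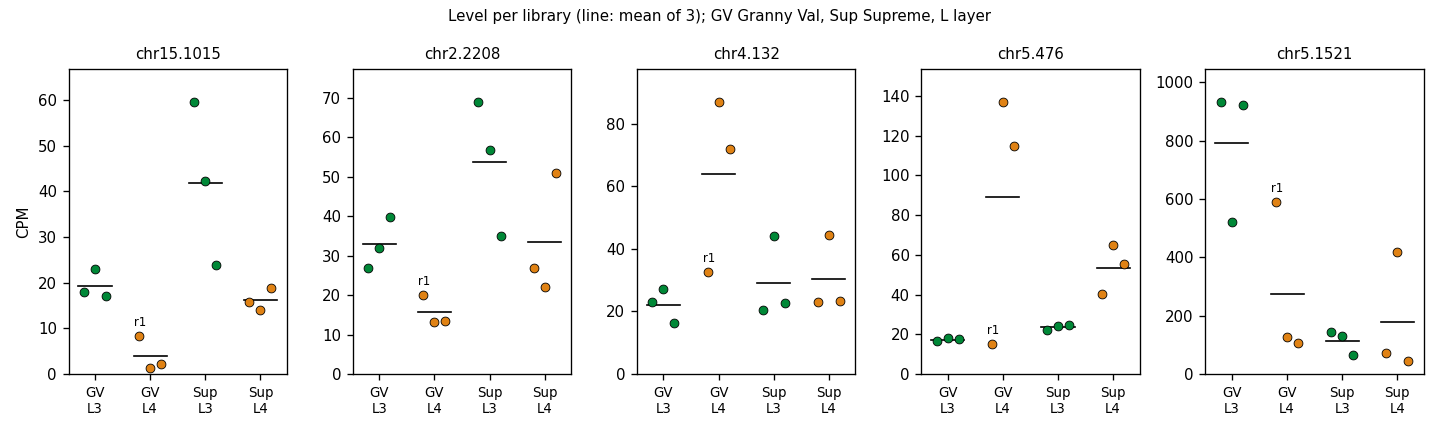
CPM of the 5 gene models is plotted for every library of layers 3 and 4 in Granny Val and Supreme, each panel with its own axis from 0 and lines at the mean of 3 libraries. In Granny Val, layer 4 replicate 1 (r1) lies between the other layer 4 libraries and layer 3, inside the range of layer 3 or just below it, at 15.0 CPM for evm.model.chr5.476 against 137 and 115 CPM in the other layer 4 libraries.

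The DESeq2 calls lower in layer 3 were mostly of low level. All 6 gene models higher in layer 3 had no overlap between the libraries, 4 of them had at least 10 CPM in layer 3, in 1 a single library held over 80% of the summed CPM of the layer, and 6 of 6 had an unadjusted edgeR p under 0.05. Of the 22 lower ones, 17 had no overlap, 2 reached a mean of 10 CPM in layer 4, and in 6 a single library held over 80% of the summed CPM of layer 4. That library was layer 4 replicate 2 in 4 of the 6, and 20 of the 22 had an unadjusted edgeR p under 0.05. The other 2, evm.model.chr16.2157 and evm.model.chr8.1979, had layer 4 means of only 0.026 and 0.0248 CPM. The largest DESeq2 log2 fold changes, -24.12 and -23, belonged to evm.model.chr17.537 and evm.model.chr5.541. In these, layer 4 replicate 2 held 99.8% and 100% of the summed CPM of layer 4. Most of the 22 had 0 CPM in layer 3 replicate 3, the inner library of Granny Val with the fewest gene models seen at equal depth. Some, such as evm.model.chr1.681 and evm.model.chr19.493, were at 0 CPM in all 3 layer 3 libraries. The share at 0 in that library among other gene models of like level was not set beside this. These shares describe calls chosen on the same libraries and were not tested.

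The same contrast in Supreme, the purple cultivar with thin skin, used libraries that the Granny Val fit did not. Its 6 libraries of layers 3 and 4 all correlated best with the Granny Val inner layers. In Alachua, layer 3 replicate 1 correlated best with Granny Val layer 1 and layer 4 replicates 2 and 3 with layer 2, so Alachua was not compared. In Supreme edgeR called 0 of 17269 gene models between layers 3 and 4 (0%), with 301 at an unadjusted p under 0.05 (1.74%). That share was again below the one of evenly spread p-values. DESeq2 called 7 of 21302. With 1 Supreme library left out, the 301 became 154 without layer 4 replicate 2, 164 without layer 3 replicate 2, 185 without layer 4 replicate 3, 193 without layer 3 replicate 3, 755 without layer 3 replicate 1 and 1181 without layer 4 replicate 1, and it became 163 with a block for the replicate number, while the count of calls stayed at 0. The difference between the cultivars in the contrast was tested as an interaction in the same fit of 12 libraries. It was called for 0 gene models (0%) by edgeR, with 280 at an unadjusted p under 0.05 (1.62%, also below an even spread). DESeq2 called 4 of 21302. In Supreme the names of layer 3 replicate 1 and layer 4 replicates 2 and 3 start with a letter, the rest with a number. Letters thus lean to layer 3 in Granny Val and to layer 4 in Supreme. The interaction is therefore partly confounded with the kind of name, whose part in it was not tested. The 280 became 899 without Supreme layer 4 replicate 1, 673 without Supreme layer 3 replicate 1, 186 without Supreme layer 3 replicate 2 and 131 with a block for the replicate number. It became 551 when replicate 3 of Granny Val layer 4 was left out and 456 when replicate 3 of Granny Val layer 3 was. Of the 488 gene models with an unadjusted p under 0.05 in Granny Val in this fit, 321 (65.8%) had the same sign in Supreme, beside 9039 of all 17269 tested (52.3%). In Supreme 25 of the 488 had an unadjusted p under 0.05 in the same direction and 10 in the opposite one, beside 183 and 118 of all 17269. Both contrasts share 1 estimate of the spread for each gene model in this fit. Their p-values are therefore not independent, and these counts were not tested.

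Of the 5 gene models described above, evm.model.chr15.1015 had the same direction in both cultivars. In Supreme it had 59.6, 42.2 and 23.8 CPM in layer 3 and 15.7, 14.1 and 18.8 CPM in layer 4, with no overlap (log2 fold change 1.36, edgeR adjusted p = 1). The difference of the log2 fold changes, Granny Val minus Supreme, was 0.95 with an interval from -0.75 to 2.65. The gene model evm.model.chr5.476 had 21.9, 24.3 and 24.6 CPM in layer 3 and 40.4, 64.9 and 55.4 CPM in layer 4 of Supreme, also without overlap (log2 fold change -1.20, edgeR adjusted p = 1). Its difference between cultivars was -1.17, with an interval from -2.82 to 0.48. For evm.model.chr2.2208 the Supreme libraries overlapped, at 69.0, 56.9 and 35.1 CPM in layer 3 and 26.9, 22.1 and 51.1 CPM in layer 4 (log2 fold change 0.67, interval -0.09 to 1.44).

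The remaining 2 differed more between the cultivars, though neither difference passed the adjustment. In Supreme evm.model.chr4.132 had 20.5, 44.0 and 22.8 CPM in layer 3 and 23.1, 44.4 and 23.3 CPM in layer 4, nearly the same values in both layers (log2 fold change -0.07, interval -0.98 to 0.83). The difference, Granny Val minus Supreme, was -1.46 with an interval from -2.75 to -0.17 (edgeR adjusted p = 1). For evm.model.chr5.1521 Supreme had 143, 130 and 64.6 CPM in layer 3 and 70.9, 417 and 43.4 CPM in layer 4, where 1 library stood far above the others. Its log2 fold change of -0.67 in Supreme (interval -2.39 to 1.05) had the opposite sign to that in Granny Val, and the interval of the difference, -0.25 to 4.65, included 0.

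**Figure D5:**
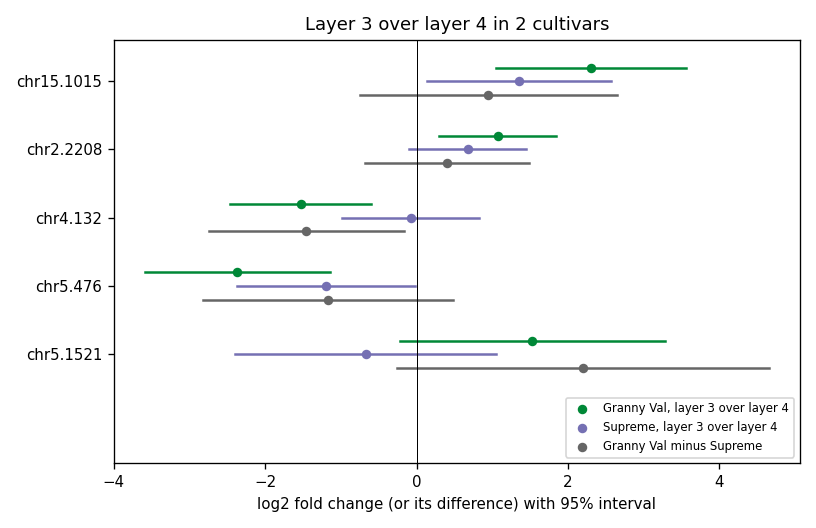
The log2 fold change of layer 3 over layer 4 with its 95% interval is plotted for the 5 gene models in Granny Val and in Supreme, with the difference between the cultivars below each pair, all from the fit of the 12 inner libraries. The interval of the difference leaves out 0 for evm.model.chr4.132 and includes it for the other 4.

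With 0 interaction calls, the gene models with the smallest interaction p at a mean of at least 10 CPM were named, again after their values were seen, and each had an adjusted edgeR p of 1. In Granny Val evm.model.chr5.247, on chromosome 5, had 175, 187 and 202 CPM in layer 3 and 134, 128 and 127 CPM in layer 4, whereas in Supreme it had 160, 128 and 136 CPM in layer 3 and 177, 261 and 208 CPM in layer 4. Neither cultivar's layers overlapped and the directions were opposite (difference of log2 fold changes 1.16, interval 0.53 to 1.78, edgeR adjusted p = 1). In Granny Val evm.model.chr20.331, on chromosome 20, had 15.9, 18.6 and 18.3 CPM in layer 3 and 9.72, 6.35 and 9.13 CPM in layer 4. In Supreme it had 15.0, 8.46 and 7.05 CPM in layer 3 and 13.7, 18.6 and 17.6 CPM in layer 4, and here the layers overlapped (difference 1.79, interval 0.74 to 2.84, edgeR adjusted p = 1). By name, its Supreme libraries had 15.0, 18.6 and 17.6 CPM with letters and 8.46, 7.05 and 13.7 CPM with numbers, without overlap. For evm.model.chr5.247 these were 160, 261 and 208 CPM with letters and 128, 136 and 177 CPM with numbers, with overlap. In Granny Val the kinds of name overlapped for both gene models. What part the kind of name has in these values was not tested.

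On the negative side of the difference, evm.model.chr10.970 on chromosome 10 had 22.1, 13.9 and 22.9 CPM in layer 3 and 27.7, 27.1 and 25.2 CPM in layer 4 of Granny Val. In Supreme it had 2.13, 5.47 and 6.18 CPM in layer 3 and 0.664, 1.43 and 0.711 CPM in layer 4, so that the values did not overlap between layers in either cultivar and the level was lower in every Supreme library. The log2 fold change in Granny Val was -0.44, with an interval from -1.37 to 0.48 that includes 0, and in Supreme it was 2.27, with an interval from 1.28 to 3.25 (difference -2.71, interval -4.05 to -1.37, edgeR adjusted p = 1). The gene model evm.model.chr2.525, on chromosome 2, had 0.247, 0.051 and 0.0259 CPM in layer 3 and 47.0, 3.12 and 0.538 CPM in layer 4 of Granny Val, and 1.70, 0 and 43.9 CPM in layer 3 and 0, 0.236 and 0.052 CPM in layer 4 of Supreme. In each cultivar 1 library, Granny Val layer 4 replicate 1 and Supreme layer 3 replicate 3, held nearly all of its counts in the inner layers. Without Granny Val layer 4 replicate 1 its log2 fold change in Granny Val was -4.08, against -7.30 with it. In Granny Val layer 1 the same gene model averaged 931 CPM with an SD of 1220 CPM (n = 3), so that its level also varied widely between replicates in the skin.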

How the data were processed

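The files deposited by the authors give read counts as whole numbers for each gene model, with 1 table for a library. They were made with cutadapt, STAR, SAMtools, HTSeq 0.11.2 and DESeq2, per the submitters' processing notes, which give no role or order. Poly(A) RNA and a directional kit were used, per the labels' protocols. For the build, the annotation and the use of strand in counting, no statement is given in the sources used here; reads of overlapping genes and of near-identical copies are therefore uncertain. The 5 special lines of each table stayed out of totals and tests; reads outside gene models were 12.1% to 14.6% of the counts and special lines of the 6 libraries.

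From these counts edgeR 4.0.16, run in R 4.3.3, gave CPM with TMM scaling over all 36 libraries and the tests. The 12 Granny Val libraries formed 1 quasi-likelihood fit of 4 layer groups with 8 residual degrees of freedom, after filterByExpr by group. Supreme and the interaction were tested in a fit of the 12 libraries of layers 3 and 4 of Granny Val and Supreme. Intervals of 95% came from the fold change and its F statistic, and 99 gene models had none. For principal components and correlations a prior count of 2 was added before taking log2 CPM. DESeq2 1.42.0, other scalings, filters, fits and each library left out were alternatives, and 2 further alternatives were chosen after seeing the data. Exact permutation tests used scipy 1.17.1. The count test was checked on simulated counts with the same spread for every gene model and no outlying library. Since these libraries differ from that, the check does not give the power of the test here. Replicate pairs of the inner layers differed by 198 to 543 times the sampling variance, and 0 of the 6 pairs were identical. The libraries compared and the rules were chosen with earlier results of these data known. The naming rule took at most 2 gene models per direction, called, with at least 10 CPM and no overlap; where none was called, those with the smallest p and at least 10 CPM. Replicate numbers were not used to pair the libraries in the main fits.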

Additional observations from a re-analysis of the deposited data

How the results depend on the processing

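The count of 0 calls between layers 3 and 4 of Granny Val stayed at 0 with RLE size factors, with no or a stricter filter on low counts, with only the 6 libraries, with all 36, and with a covariate for the kind of library name. It became 28 with DESeq2, ranged from 0 to 3 when 1 library was left out, and was 122 with DESeq2 without layer 4 replicate 1, a setting chosen after seeing the data. DESeq2 gave 7 calls in Supreme and 4 for the difference between the cultivars, where edgeR gave 0 under every other setting tried. Between layers 1 and 2 the 978 calls became 2169 with DESeq2 and 375 to 1272 with 1 library left out, and RLE size factors split them into 535 higher and 434 lower in layer 1, where TMM gave 481 and 497. The difference in detected gene models ran from -1586 to 921 and that in the top 100 share from -1.97 to 1.84 percentage points with 1 library left out. The cause of these changes was not tested. With the kind of name as a covariate the median log2 fold change of all gene models between layers 3 and 4 was -0.13, against -0.03 without it. The 5 gene models named for that contrast kept their direction under every setting tried.

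Same-numbered libraries of layers 3 and 4 deviated from their layer means with correlations of -0.0521, -0.0382 and -0.33. Each such pair joins a library with a letter and a library with a number. These values therefore cannot show whether the numbers pair the libraries. With the replicate number as a block, 0 gene models were called between layers 3 and 4 of Granny Val (457 at an unadjusted p under 0.05), 0 in Supreme, 0 for the difference between the cultivars and 906 between layers 1 and 2.

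With 3 libraries a side, intervals mostly reached beyond 2-fold under 10 CPM, and after adjustment larger differences above that level, such as that of evm.model.chr15.1015, were not called either. The kind of library name is unevenly spread over the layers, and the identifiers could not be given names, so no gene group was described.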
